A study of Homo sapiens with 9 samples.

Results

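The genes described here are 52 genes of the interferon response and of nucleic acid sensing, measured in HCT116 cells, a human colorectal cancer line, after transfection with small interfering RNAs (siRNAs). They are the rows of the deposited gene count table whose gene name was on a list of RNA and DNA sensors, their adaptors, interferon receptors, transcription factors and interferon-induced effectors, and all 52 were found among the 35817 genes of the table. Cells received LINC00857-siRNA1 (siRNA1) or LINC00857-siRNA2 (siRNA2), which both target the long non-coding RNA LINC00857, or a negative control siRNA (NC), each delivered with the lipid reagent Lipofectamine RNAiMAX. There were 3 libraries of total RNA in each of the 3 groups. Every group was therefore transfected with double-stranded RNA, and no untransfected cells were analysed here, so a response common to the 3 groups cannot be told apart from the basal level of the line. The question put to these genes was whether an siRNA left an interferon trace beyond that of NC, and whether the trace differed between the siRNAs. Neither the dose nor the time of harvest could be taken from the labels or the study's methods.

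Cells read double-stranded RNA in the cytosol with the helicases RIG-I, which is encoded by DDX58, and MDA5, which is encoded by IFIH1, and in endosomes with TLR3. The helicases signal through the mitochondrial adaptor MAVS to the factors IRF3 and NF-kB, which switch on type I and type III interferon genes. Secreted interferon binds its receptor and activates transcription factors, STAT2 and IRF9 among them, on interferon-stimulated response elements, which induces a broad set of effectors, among them the IFIT, OAS, MX and IFITM families and many of the sensors themselves. The kinase PKR, encoded by EIF2AK2, and the oligoadenylate synthetases are activated by double-stranded RNA directly.

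The libraries held 54097508 to 57815092 counts with siRNA1, 51411860 to 57156058 with siRNA2 and 54242901 to 55790505 with NC. LINC00857, the targeted transcript, had 201, 229 and 207 normalized counts in the siRNA1 libraries, 179, 178 and 243 in the siRNA2 libraries and 518, 423 and 505 in the NC libraries, so that both knockdown groups lay below NC without overlap. Normalized counts are raw counts scaled to a common library size with TMM factors, which lay between 0.978 and 1.02. Epithelial markers were abundant in every library, with summed counts of 200382 to 238006 with siRNA1, 196943 to 225887 with siRNA2 and 194489 to 209897 with NC, although CDX1 and LGR5 of that list did not exceed 4 and 25 counts. The leukocyte markers summed to 259 to 421, 308 to 604 and 357 to 403 counts in siRNA1, siRNA2 and NC libraries, nearly all from CD68, with PTPRC at 4 or fewer. The fibroblast markers summed to 3376 to 3583, 1371 to 1661 and 1848 to 2317 counts in the same order of groups, nearly all from COL1A1, with DCN at 10 or fewer, and the part of these sums in the results was not tested. Of the 52 genes, 49 passed the filter on low counts and were tested, and MX2, IFI44L and XAF1 were not. Whether replicate libraries came from cultures of their own is not stated. The p-values therefore rest on the spread among these libraries only, and that spread may be technical. All group comparisons used the quasi-likelihood F test of edgeR with Benjamini-Hochberg adjustment over the 21130 genes tested and a threshold of 0.05.

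Interferon and sensor genes were lower more often than higher with either siRNA. Of the classical interferon-induced genes named whatever their result, only IFIT2 passed as higher with siRNA2, and none did with siRNA1. OAS1, MX1 and RSAD2, all sparse, had every siRNA2 library above every NC library but did not pass in edgeR. IFI44L was placed likewise and was not tested. IFIT1, IFIT3 and ISG15 overlapped NC with siRNA2. IFI6 had every siRNA2 library below every NC library and did not pass, and IFI27 had a lower siRNA2 mean but overlapped NC. With siRNA2 the members that passed as higher were IFIT2, an interferon-induced protein that binds RNA, which was 2.69 times its NC level, DDX58, which was 1.27 times its NC level, and IFNAR1, a receptor chain, by log2 0.17, while DTX3L, IFIH1, TLR3, OAS3, EIF2AK2, PARP14 and STAT2 fell. With siRNA1, STAT2, PARP14, SP100, IFIT1, ISG20 and BST2 were among the genes that fell, and IFITM2 and IFITM3, membrane proteins that block viral entry, rose. In the edgeR test 3 of the 49 members (6.12%) were higher and 11 (22.4%) lower in siRNA1 than in NC, beside 10.8% higher and 10.5% lower among all genes tested. For siRNA2 against NC, 3 members (6.12%) were higher and 16 (32.7%) lower, beside 13.8% and 13.9% of all genes. The median log2 fold change of the tested members was -0.15 with siRNA1 and -0.12 with siRNA2, beside 0.01 and 0.00 over all genes tested.

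The share of calls also depends on how deeply a gene is counted. Of the members, 41 reached an average of 50 normalized counts or more, as did 15091 of all genes tested. Within these genes the members gave 3 higher and 10 lower with siRNA1 (7.32% and 24.4%), beside 14.7% and 14.5% of all such genes. With siRNA2 they gave 3 higher and 16 lower (7.32% and 39.0%), beside 18.8% and 18.8%. The 2 comparisons share the NC libraries, so members that pass in both of them are not counted as independent support. ZC3HAV1, TRIM25, STAT2 and PARP14 passed as lower in each comparison, and IFITM2, IFITM3 and IFNAR1 passed in opposite directions. The remaining calls were made with 1 siRNA, 7 with siRNA1 (SP100, IRF1, BST2, TRIM21, ADAR, ISG20 and IFIT1) and 12 with siRNA2 (EIF2AK2, SAMHD1, DDX58, OAS3, IFIH1, IFIT2, PARP9, IFNAR2, DTX3L, TLR3, STING1 and IFITM1). A call with 1 siRNA does not show that the siRNAs differ, which is tested where siRNA1 and siRNA2 are compared with each other. Another 23 members passed with neither siRNA. The 3 libraries of siRNA1 did not overlap those of NC for 5 members that were higher and 20 that were lower, beside 36.2% of all genes tested. For siRNA2 this held for 6 higher and 20 lower members, beside 41.6% of all genes. At an unadjusted p under 0.05 the counts were 22 members (44.9%) for siRNA1 and 26 (53.1%) for siRNA2, beside 31.4% and 36.8% of all genes tested. Of the 14 calls with siRNA1, 5 held under every alternative setting and with any library left out (ZC3HAV1, STAT2, IFITM3, IFNAR1 and SP100), as did 14 of the 19 calls with siRNA2.

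**Figure D1:**
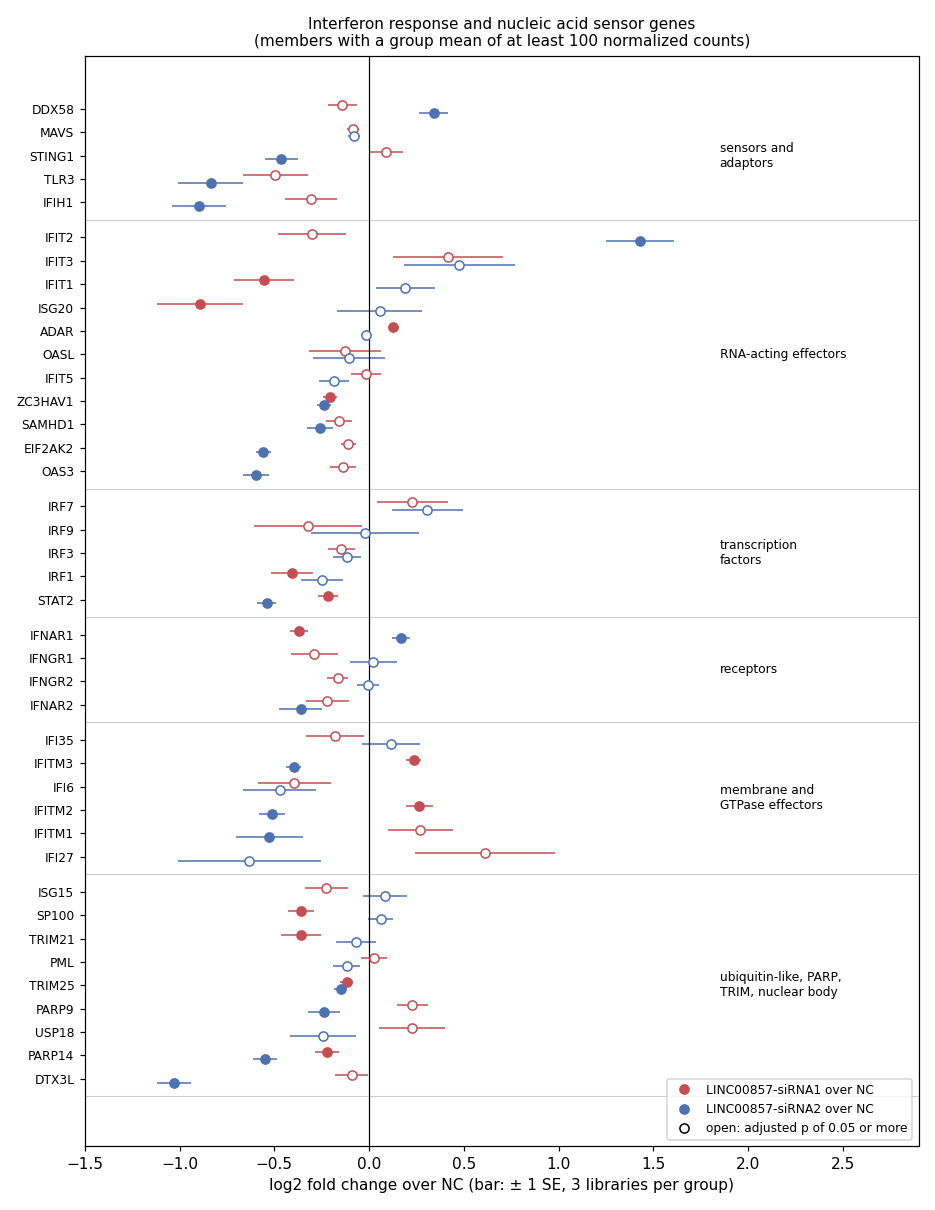
Log2 fold change over NC (horizontal axis) of the 40 members with a group mean of at least 100 normalized counts, grouped by role, for siRNA1 (red) and siRNA2 (blue), with bars of 1 SE and filled points where the adjusted p of the edgeR test was under 0.05. Most filled points lie left of 0, and IFIT2 with siRNA2 stands apart on the right at a log2 fold change of 1.43.

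The levels of the members covered a wide range, and those in NC are levels of transfected cells. Given per length, as counts per base of exon scaled to a fixed sum per library (ppm), IFITM3 had the highest level of the 52 genes, at 353 ± 12.4 in siRNA1, 217 ± 3.32 in siRNA2 and 288 ± 9.35 in NC libraries (SD, n = 3 each). The level of ADAR, the enzyme that edits adenosines in double-stranded RNA, was 116 in NC, that of the ubiquitin-like modifier ISG15 was 110, that of IFITM2 95.5, that of the ubiquitin ligase TRIM25 81.5 and that of MAVS 78.9, and these 6 members were the ones above 50. PKR stood at 41.3 ± 0.296 in NC, RIG-I at 14.2 ± 0.452, MDA5 at 6.91 ± 0.119 and TLR3 at 2.48 ± 0.0315. By contrast 11 members were below 1 in NC, among them the classical interferon-induced genes OAS1 at 0.172 ± 0.114, MX1 at 0.156 ± 0.00662 and RSAD2 at 0.0106 ± 0.0184. The median member level in NC was 8.33, beside 6.75 for all tested genes, and 31 members lay above that median. IFIT2 sat at percentile 29.9 of tested genes in siRNA1, 47.8 in siRNA2 and 33.1 in NC libraries.

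**Figure D2:**
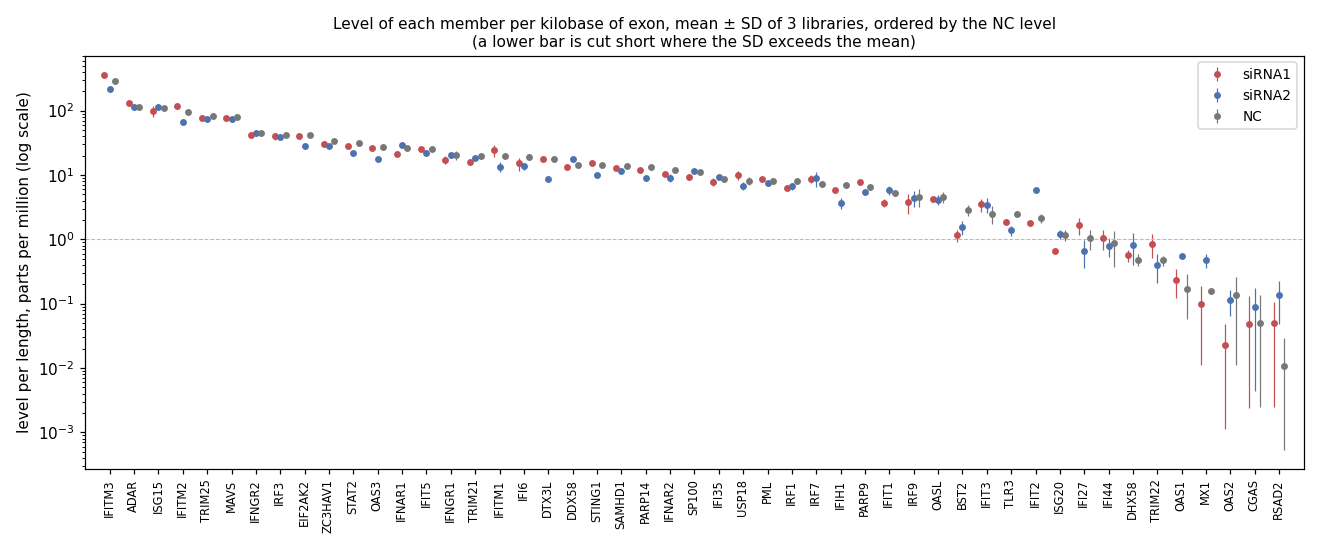
Level per length in ppm (vertical log axis) of the 49 members with a count in every group, as the mean and SD of 3 libraries for siRNA1, siRNA2 and NC, ordered by the NC level. Levels fall from IFITM3 at 288 in NC to RSAD2 at 0.0106, and OAS1, MX1 and IFIT2 show the siRNA2 point above the other groups.

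Among the 7 RNA and DNA sensors and adaptors, DDX58 rose and IFIH1, TLR3 and STING1 fell with siRNA2. That is 14.3% higher and 42.9% lower, beside 13.8% and 13.9% of all genes tested. With siRNA1 the edgeR test called 0 of the 7, beside 21.3% of all genes tested. At an unadjusted p under 0.05 there were 3 (42.9%), beside 31.4% of all genes tested. DESeq2 and limma-voom called TLR3 and MAVS lower with siRNA1. DDX58, whose product RIG-I binds short blunt double-stranded RNA ends that carry phosphates, had 1131, 1042 and 1070.3 normalized counts in siRNA1, 1463, 1471 and 1594 in siRNA2 and 1143, 1216 and 1216 in NC libraries. All siRNA2 libraries were above all others, a log2 fold change over NC of 0.34 ± 0.08 (SE, edgeR adjusted p = 0.00418). The siRNA1 value of -0.14 did not pass (edgeR adjusted p = 0.236). IFIH1, whose product MDA5 recognizes long double-stranded RNA, had 548, 524 and 579 in siRNA1, 449.6, 308 and 338 in siRNA2 and 691, 680.4 and 671 in NC libraries. Both siRNA groups lay below NC without overlap. The fall passed for siRNA2, with a log2 fold change of -0.90 ± 0.14 (SE, edgeR adjusted p = 0.00033), and not for siRNA1, with -0.31 (edgeR adjusted p = 0.149). The 2 helicases that share the adaptor MAVS thus changed in opposite directions with siRNA2.

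TLR3, the endosomal receptor for double-stranded RNA, followed IFIH1 in direction, with 230.1, 233 and 220.1 normalized counts in siRNA1, 216, 154 and 169 in siRNA2 and 321, 326 and 315 in NC libraries. Its log2 fold change was -0.84 ± 0.17 with siRNA2 (SE, edgeR adjusted p = 0.00253) and -0.49 with siRNA1, just short of the threshold (edgeR adjusted p = 0.0576). The siRNA1 value passed in DESeq2 (adjusted p = 0.0310) and limma-voom (adjusted p = 0.0325), and in edgeR without siRNA2 replicate 1 (adjusted p = 0.0418). STING1, the adaptor of cytosolic DNA sensing, had 1065, 1139 and 1123 in siRNA1, 711, 756 and 803 in siRNA2 and 1124, 1017 and 988 in NC libraries. It fell with siRNA2 to 0.726 times NC (log2 -0.46, edgeR adjusted p = 0.00161), and siRNA1 overlapped NC. MAVS itself moved by little, to 0.942 times NC with siRNA1 and 0.946 times NC with siRNA2 (edgeR adjusted p = 0.0676 and 0.0728). These small values passed in DESeq2 (adjusted p = 0.0188 and 0.0286), in limma-voom (adjusted p = 0.0305 and 0.0365) and in edgeR without siRNA1 replicate 2 (siRNA1, adjusted p = 0.0430), siRNA2 replicate 1 (siRNA1, adjusted p = 0.0462) or siRNA1 replicate 1 (siRNA2, adjusted p = 0.0352). DHX58, which encodes LGP2, a helicase that tunes the other helicases, was sparse, at 49.98, 36.1 and 34.0 normalized counts in siRNA1, 96.6, 44.7 and 41.7 in siRNA2 and 34.8, 43.7 and 28.7 in NC libraries. The high siRNA2 library stands alone there and the groups overlap (log2 0.77 ± 0.42, edgeR adjusted p = 0.205). CGAS, the DNA sensor upstream of STING1, was close to absent, with 11, 20 and 12 raw counts summed over the siRNA1, siRNA2 and NC libraries.

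The effectors that act on RNA were split, with 4 falls and 1 rise in siRNA2 and 3 falls and 1 rise in siRNA1 among 13 tested. With siRNA2 this is 30.8% lower and 7.69% higher, beside 13.9% and 13.8% of all genes tested. With siRNA1 it is 23.1% lower and 7.69% higher, beside 10.5% and 10.8%. PKR, the kinase that halts translation when it binds double-stranded RNA, had 7712, 8125 and 7979 normalized counts of its gene EIF2AK2 in siRNA1, 6072, 5625 and 5760.3 in siRNA2 and 8489, 8594 and 8611 in NC libraries. The fall with siRNA2 was to 0.679 times NC, a log2 fold change of -0.56 ± 0.04 (SE, edgeR adjusted p = 2.79e-07). The siRNA1 value of -0.11 missed the threshold (edgeR adjusted p = 0.0596). It passed in DESeq2 (adjusted p = 0.0279) and limma-voom (adjusted p = 0.0374), and in edgeR without siRNA1 replicate 2, siRNA2 replicate 1 or siRNA2 replicate 2 (adjusted p = 0.0481, 0.0313 and 0.0384). OAS3, the oligoadenylate synthetase with the highest level here, had 3611, 4199 and 4033 in siRNA1, 2700.4, 3047 and 2887 in siRNA2 and 4661, 4366 and 4018 in NC libraries. Only the siRNA2 libraries lay apart, with a log2 fold change of -0.60 ± 0.07 (SE, edgeR adjusted p = 2.74e-05). ZC3HAV1, the antiviral protein ZAP that binds CpG-rich RNA, had 4490.5, 4593 and 4680.3 in siRNA1, 4378, 4634 and 4470.1 in siRNA2 and 5299.9, 5305 and 5298 in NC libraries. It fell with both siRNAs (log2 -0.21 and -0.24, edgeR adjusted p = 0.00139 and 0.000343). SAMHD1, a dNTP hydrolase, fell with siRNA2 (log2 -0.26, edgeR adjusted p = 0.0118), a call that was lost without NC replicate 3 (adjusted p = 0.0544) and without siRNA2 replicate 3 (adjusted p = 0.0601).

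The IFIT genes, which lie side by side on chromosome 10 and are as a rule induced together, did not move together. IFIT2 had 157, 129 and 129 normalized counts in siRNA1, 427, 471 and 479 in siRNA2 and 140.0, 196 and 175 in NC libraries. All siRNA2 libraries were far above every other library, which gave a log2 fold change over NC of 1.43 ± 0.18 (SE, edgeR adjusted p = 5.22e-05). The siRNA1 libraries overlapped NC (log2 -0.30, edgeR adjusted p = 0.289). IFIT2 shares 8.68% of its exon bases with AL353751.1 on the same strand and 1.58% with LIPA on the other. Their median counts were 0 and 2137, beside 177 for IFIT2, and the part of these genes in its counts was not tested. IFIT1, whose product binds RNA that lacks cap methylation, had 360.2, 306 and 272 in siRNA1, 581, 562 and 434 in siRNA2 and 411, 498 and 471 in NC libraries. It fell with siRNA1 (log2 -0.56 ± 0.16, edgeR adjusted p = 0.0237) and overlapped NC with siRNA2 (log2 0.19 ± 0.16, edgeR adjusted p = 0.431). The siRNA1 call was lost without NC replicate 2 or 3 or siRNA1 replicate 2 or 3, with adjusted p between 0.0646 and 0.0934. IFIT3, the partner that stabilizes IFIT1, had 199.9, 184 and 126 in siRNA1, 215, 192 and 125 in siRNA2 and 148, 152 and 83.0 in NC libraries, which overlap throughout (log2 0.42 and 0.48, edgeR adjusted p = 0.385 and 0.274). IFIT5 was within 0.19 log2 units of NC with both siRNAs and did not pass, although its siRNA2 value passed without siRNA2 replicate 3 (-0.28, adjusted p = 0.0181).

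OAS1, another synthetase and a common readout of interferon, was sparse but higher with siRNA2, at 19, 14 and 33 raw counts in siRNA1, 59, 51 and 46 in siRNA2 and 24, 21 and 4 in NC libraries. All siRNA2 libraries exceeded all others, yet the log2 fold change of 1.70 ± 0.61 missed the threshold in edgeR (adjusted p = 0.0562). It passed in DESeq2 (adjusted p = 0.0250), in limma-voom (adjusted p = 0.0330) and in edgeR with a stricter filter on low counts (adjusted p = 0.0464). OASL and OAS2 did not pass with either siRNA, and OAS2 had means of 2.62 ± 2.97 in siRNA1, 13.7 ± 5.81 in siRNA2 and 16.5 ± 15.2 in NC libraries. ISG20, an exonuclease that degrades viral RNA, had means of 89.4 ± 5.68 in siRNA1, 173 ± 26.4 in siRNA2 and 166 ± 33.1 in NC libraries (SD, n = 3 each). It fell with siRNA1 (log2 -0.89, edgeR adjusted p = 0.013), a call that did not pass without NC replicate 1 (adjusted p = 0.0528). ADAR was the effector that rose with siRNA1, at log2 0.13 over NC (edgeR adjusted p = 0.00775). Without NC replicate 3 or siRNA1 replicate 3 it did not pass (adjusted p = 0.0569 and 0.0594).

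**Figure D3:**
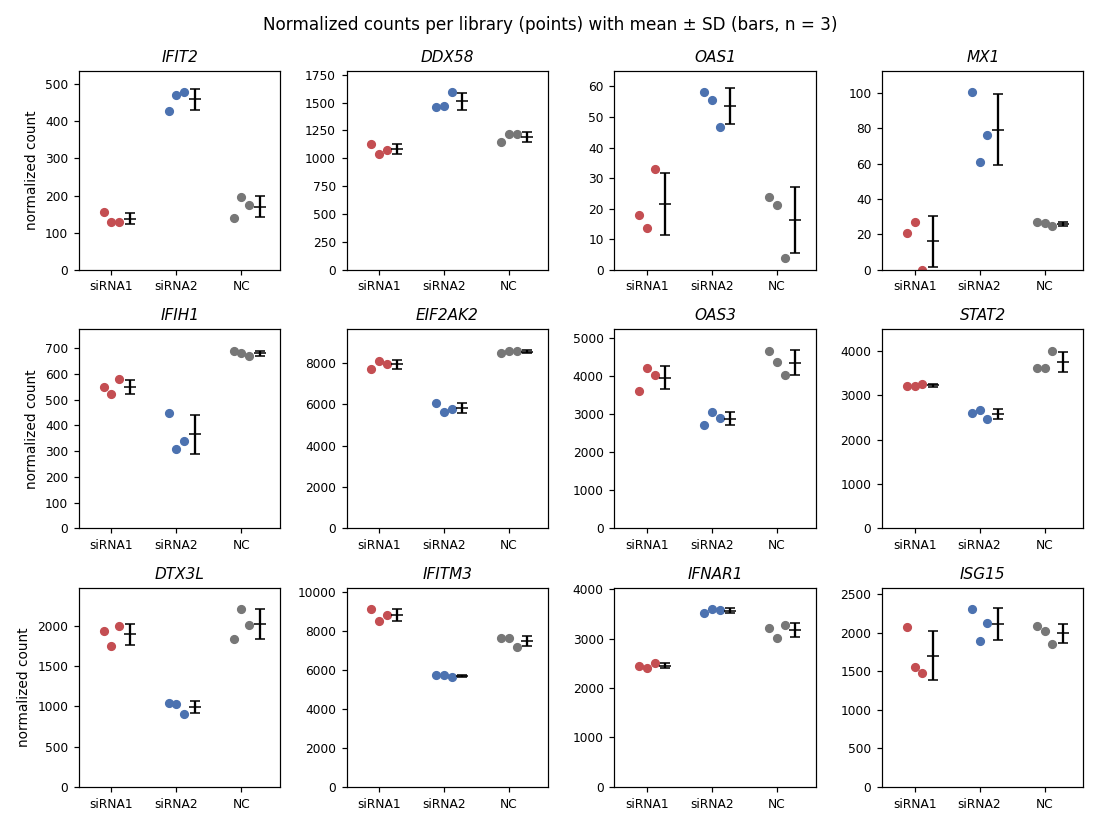
Normalized counts (vertical axes, from 0) of 12 members in each library of siRNA1, siRNA2 and NC, with the mean and SD of 3 libraries beside the points. The siRNA2 libraries stand above the rest for IFIT2, DDX58, OAS1, MX1 and IFNAR1 and below the rest for IFIH1, EIF2AK2, OAS3, STAT2, DTX3L and IFITM3, while ISG15 overlaps between the groups.

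Promoters of many of these genes hold the letters of the element through which interferon acts, among them promoters of genes that fell with siRNA2. RefSeq promoter sequence (assembly GRCh38.p14, 250 bases before to 50 after the start) was found for 38 of the 52 members. The core of the interferon-stimulated response element was taken as GAAA, any 2 bases and GAAA, on either strand. It occurred in 20 of those 38 (52.6%), beside 3.57% of the 35116 promoters in the table and 2.85% of the promoters of genes tested. The core of the gamma-activated site, taken as TTC, any 3 bases and GAA, occurred in 10 of 38 (26.3%), beside 7.66% and 6.29%. The members were listed as genes of the interferon response, so high shares come with that choice and are no result of these data. The 8 windows below hold a response element core, in capitals, with the bases around it, written 5′ to 3′ in the direction of the gene. They were chosen to show the element in members that fell with siRNA2 (IFIH1, EIF2AK2, OAS3, DTX3L, PARP14), in IFITM3, which moved in opposite directions with the siRNAs, in IFIT1, which fell with siRNA1, and in ISG15, which passed with neither.
IFIH1, chr2:162318686-162318715, minus strand: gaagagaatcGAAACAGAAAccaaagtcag
EIF2AK2, chr2:37156967-37156996, minus strand: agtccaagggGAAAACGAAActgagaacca
OAS3, chr12:112938321-112938350, plus strand: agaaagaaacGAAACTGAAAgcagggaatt
DTX3L, chr3:122564322-122564351, plus strand: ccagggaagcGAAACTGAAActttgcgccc
PARP14, chr3:122680800-122680829, plus strand: tccaggaaacGAAAGCGAAAgagtcaaagt
IFITM3, chr11:320876-320905, minus strand: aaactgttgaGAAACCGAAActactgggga
IFIT1, chr10:89392497-89392526, plus strand: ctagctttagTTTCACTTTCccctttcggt
ISG15, chr1:1013380-1013409, plus strand: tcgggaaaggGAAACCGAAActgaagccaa

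The IFIT1 core reads on the opposite strand, as TTTC, any 2 bases and TTTC. OAS3, IFITM3, IFIT1 and ISG15 hold 2 cores each and IFIH1 holds 3, some of which overlap. Of the 19 tested members with a core, 8 were lower with siRNA2 by the edgeR test and the others did not pass, at a median log2 fold change of -0.47, and 1 was higher and 5 lower with siRNA1, at a median of -0.22. Of the 17 tested members whose promoter held no core, 2 were higher and 5 lower with siRNA2 (median -0.01), and 1 was higher and 6 lower with siRNA1 (median -0.17). Among the 330 tested genes with a core that are not members, 15.2% were higher and 20% lower with siRNA2, beside 18.4% and 17.7% of the other genes without it. With siRNA1 13.6% were higher and 11.5% lower, beside 14.3% and 14.2%, so that falls were more frequent beside a core with siRNA2 and less frequent with siRNA1, and these differences were not tested. A match describes these letters in this window and is no measured binding site, and the promoters of IFIT2, OAS2, OASL and MX2 are not in the table.

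Of 5 transcription factors, STAT2 fell with both siRNAs and IRF1 with siRNA1, and the chains of the type I interferon receptor moved in different directions. STAT2, the subunit that gives the interferon complex its activating domain, had 3211, 3214 and 3265 normalized counts in siRNA1, 2609.7, 2670.5 and 2458 in siRNA2 and 3627, 3622 and 4014 in NC libraries. The 3 groups did not overlap, and the log2 fold change was -0.22 ± 0.05 with siRNA1 and -0.54 ± 0.05 with siRNA2 (SE, edgeR adjusted p = 0.00931 and 5.99e-06). IRF1, a factor that induces antiviral genes and is itself a target of interferon gamma, fell with siRNA1 (log2 -0.41, edgeR adjusted p = 0.0178), a call that was lost without NC replicate 1 or 2 or siRNA1 replicate 1 or 3 (adjusted p between 0.0532 and 0.0717). The siRNA2 value of IRF1, -0.25, did not pass (edgeR adjusted p = 0.117), and without siRNA2 replicate 2 it was -0.34 and passed (adjusted p = 0.0499). IRF3, IRF7 and IRF9 did not pass with either siRNA. In the annotation 48.4% of the exon bases of IRF9 are shared with the overlapping gene AL136295.5, so its counts of 266 ± 92.3 in siRNA1, 327 ± 92.5 in siRNA2 and 332 ± 102 in NC libraries are uncertain.

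IFNAR1, the signalling chain of the type I interferon receptor, had 2444, 2405 and 2507 normalized counts in siRNA1, 3519, 3600.4 and 3588 in siRNA2 and 3227, 3013 and 3276 in NC libraries. It fell with siRNA1, at log2 -0.37 ± 0.05, and rose with siRNA2, at 0.17 ± 0.05 (SE, edgeR adjusted p = 9.54e-05 and 0.0152). The rise was lost without NC replicate 2 (adjusted p = 0.0827), siRNA2 replicate 2 (adjusted p = 0.0571) or siRNA2 replicate 3 (adjusted p = 0.0568). IFNAR2, the chain that binds interferon tightly, fell with siRNA2 (log2 -0.36, edgeR adjusted p = 0.03), which did not hold without NC replicate 1, NC replicate 3 or siRNA2 replicate 1 (adjusted p = 0.109, 0.0665 and 0.114). The IFNAR2 call was also lost without the filter on low counts (adjusted p = 0.0559). IFNAR2 shares 44.2% of its exon bases with AP000295.1 on the same strand and 39.1% with IL10RB-DT on the other, which had median counts of 0 and 32 beside 914 for IFNAR2, so its counts are uncertain. The receptor chains for interferon gamma, IFNGR1 and IFNGR2, did not pass with either siRNA. The IFNGR2 siRNA1 value was close to the threshold (log2 -0.17, edgeR adjusted p = 0.0552) and passed in DESeq2, with median-of-ratios scaling, with the stricter filter and without NC replicate 1, siRNA1 replicate 1 or siRNA2 replicate 3 (adjusted p between 0.0324 and 0.0483). The IFNGR1 siRNA1 value passed without NC replicate 2 (adjusted p = 0.0487) and with the replicate number as a block (adjusted p = 0.0445).

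Among the membrane and GTPase effectors, of which 10 of 13 were tested, IFITM2 and IFITM3 rose with siRNA1 and fell with siRNA2. IFITM3, the member with the highest level per length, had 9121, 8511 and 8829.5 normalized counts in siRNA1, 5713, 5719.8 and 5612 in siRNA2 and 7619, 7659.6 and 7189.5 in NC libraries. The groups did not overlap, with a rise of 0.24 ± 0.04 on the log2 scale with siRNA1 and a log2 fold change of -0.40 ± 0.04 with siRNA2 (SE, edgeR adjusted p = 0.000729 and 6.66e-06). IFITM2, its neighbour and paralog, had 3719, 3314 and 3209.9 in siRNA1, 1993, 1961 and 2018 in siRNA2 and 2589.9, 3041 and 2890.4 in NC libraries. The order of the groups was the same, with log2 fold changes of 0.27 and -0.51 (edgeR adjusted p = 0.0147 and 0.000104). The rise of IFITM2 with siRNA1 did not pass without NC replicate 1 (adjusted p = 0.0827) or siRNA1 replicate 1 (adjusted p = 0.0625). IFITM1 fell with siRNA2 (log2 -0.53, edgeR adjusted p = 0.0398), and did not pass when any NC library, siRNA1 replicate 3, or siRNA2 replicate 2 or 3 was left out (adjusted p between 0.0515 and 0.141). The IFITM1 call was also lost without the filter on low counts (adjusted p = 0.0784). The IFITM sequences are near copies of each other and IFITM1 shares 32.5% of its exon bases with IFITM2, so the counting may have split reads between them.

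BST2, the protein tetherin that holds budding virions to the cell, had 19, 26 and 28 raw counts in siRNA1, 42, 30 and 25 in siRNA2 and 60, 73 and 51 in NC libraries, with both siRNA groups below NC. The log2 fold change was -1.37 with siRNA1 (edgeR adjusted p = 0.0264), which was lost without NC replicate 1 or 2 or siRNA1 replicate 1 or 2 (adjusted p between 0.0549 and 0.0970). With siRNA2 it was -0.88 and did not pass (edgeR adjusted p = 0.118). MX1, a GTPase that blocks viral ribonucleoproteins, was again higher in siRNA2, with 22, 28 and 0 raw counts in siRNA1, 102, 56 and 75 in siRNA2 and 27, 26 and 25 in NC libraries. Every siRNA2 library had more than every NC library, and the log2 fold change of 1.61 ± 0.74 did not pass (edgeR adjusted p = 0.137). It passed without siRNA1 replicate 3, the library with 0 counts, which enters only through the shared estimate of the spread (adjusted p = 0.00601), and when the siRNA1 group was left out of the fit (adjusted p = 0.00610). IFI6, an anti-apoptotic mitochondrial protein, had 238, 188 and 299 normalized counts in siRNA1, 252, 202 and 232 in siRNA2 and 309.8, 294 and 349 in NC libraries. All siRNA2 libraries lay below all NC libraries, siRNA1 overlapped NC, and neither value passed (log2 -0.39 with siRNA1 and -0.47 with siRNA2, edgeR adjusted p = 0.184 and 0.0901). IFI27, one of the most inducible interferon genes, had 163, 90.7 and 125 in siRNA1, 79.9, 31.6 and 47.9 in siRNA2 and 113, 71.2 and 63.3 in NC libraries, overlapping NC in both comparisons (edgeR adjusted p = 0.297 and 0.259). IFI35 and IFI44 did not pass either.

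The genes of ubiquitin-like modification, ADP-ribosylation and nuclear bodies had 4 falls among 10 (40%) with each siRNA, and the other genes did not pass. Among all genes tested 10.5% were lower with siRNA1 and 13.9% with siRNA2. DTX3L, a ubiquitin ligase that works in a complex with PARP9, had 1939, 1745 and 1995 normalized counts in siRNA1, 1036, 1030.2 and 901 in siRNA2 and 1837, 2207 and 2009 in NC libraries. The siRNA2 level was 0.490 times that of NC, the strongest fall of any tested member with siRNA2, at a log2 fold change of -1.03 ± 0.09 (SE, edgeR adjusted p = 2.31e-06). The siRNA1 libraries overlapped NC (log2 -0.09, edgeR adjusted p = 0.549). PARP9, which lies head to head with DTX3L, had 1392, 1338 and 1199 in siRNA1, 976, 963 and 908 in siRNA2 and 1133, 1126 and 1099 in NC libraries. Its fall with siRNA2 was smaller (log2 -0.24, edgeR adjusted p = 0.0466). That PARP9 call was lost in 7 of 9 fits with 1 library left out, with adjusted p between 0.0651 and 0.139. It was also lost with upper quartile scaling (adjusted p = 0.0588) and without the filter on low counts (adjusted p = 0.0525). With siRNA1 PARP9 stood at 0.23 (edgeR adjusted p = 0.0687), which passed without siRNA1 replicate 3 (adjusted p = 0.0444), in limma-voom (adjusted p = 0.0498) and with upper quartile scaling (adjusted p = 0.0419). PARP14, an ADP-ribosyltransferase, had 2232, 2528 and 2213 in siRNA1, 1848, 1852 and 1864 in siRNA2 and 2765, 2748 and 2624 in NC libraries. Its log2 fold change was -0.22 with siRNA1 and -0.55 with siRNA2 (edgeR adjusted p = 0.0216 and 2.39e-05). Its siRNA1 call was lost without NC replicate 1 or 2 or siRNA1 replicate 1 or 3 (adjusted p between 0.0574 and 0.0695).

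TRIM25, the ubiquitin ligase that modifies RIG-I, fell by little with both siRNAs, to 0.921 times NC with siRNA1 and 0.901 times NC with siRNA2 (edgeR adjusted p = 0.0216 and 0.00406). The siRNA1 call was lost without NC replicate 3 (adjusted p = 0.0641) and with upper quartile scaling (adjusted p = 0.0744). SP100, a nuclear body protein, had 2006, 2261 and 2151 normalized counts in siRNA1, 2903, 2620.3 and 3062 in siRNA2 and 2815, 2749 and 2668 in NC libraries. It fell with siRNA1 (log2 -0.36 ± 0.07, edgeR adjusted p = 0.00174), and siRNA2 overlapped NC. TRIM21, the cytosolic antibody receptor, fell with siRNA1 (log2 -0.36, edgeR adjusted p = 0.0257), and did not pass without NC replicate 1 or 3 or siRNA1 replicate 1 or 3 (adjusted p between 0.0531 and 0.0995). ISG15, which is conjugated to other proteins after interferon, had 2072, 1555 and 1479 in siRNA1, 2305, 1896 and 2123 in siRNA2 and 2090.4, 2021 and 1858 in NC libraries. These overlap, with log2 fold changes of -0.23 and 0.08 (edgeR adjusted p = 0.212 and 0.675). Without siRNA1 replicate 1, the highest of its group, the siRNA1 value was -0.39 and passed (adjusted p = 0.00871). PML, TRIM22 and USP18, the protease that removes ISG15, did not pass with either siRNA.

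Several members that were near silent in NC had more counts with siRNA2. MX2, a GTPase that restricts retroviruses, had 8, 0 and 0 raw counts in siRNA1 and 7, 7 and 20 in siRNA2 libraries and 0 in all NC libraries. This is at least 11.7-fold higher in siRNA2 and at least 2.59-fold higher in siRNA1, against a floor of 3 counts over the NC group. Such a bound takes the siRNA counts as fixed, and exact 95% intervals that count the error in both groups began at 8.99 and 1.66. IFI44L, a much used interferon marker, had 0, 0 and 6 in siRNA1, 8, 6 and 11 in siRNA2 and 0 in NC libraries, at least 8.59-fold higher in siRNA2 and at least 1.95-fold higher in siRNA1 by the same floor, with intervals that began at 6.48 and 1.15, and the siRNA1 counts came from a single library. RSAD2, which encodes viperin, had 4, 10 and 0 in siRNA1, 21, 4 and 13 in siRNA2 and 0, 0 and 3 in NC libraries. Its ratio to NC was 13.1 in siRNA2 (95% interval 4.14 to 66.1) and 4.54 in siRNA1 (1.27 to 24.6). The edgeR test, which takes the spread between libraries into account, did not pass (adjusted p = 0.129 and 0.448). XAF1, a pro-apoptotic interferon target, had 0, 10 and 4 counts summed over siRNA1, siRNA2 and NC libraries. These intervals and floors cover counting error only, and small values do not fall off smoothly in the table, where a count of 4 occurs 8910 times and a count of 3 occurs 7362 times.

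Most interferon genes were close to silent in every group, with IFNE as an exception. IFNB1, the interferon beta gene that IRF3 induces, had 2 counts in a single siRNA2 library and none elsewhere. IFNL1, a type III interferon, had 0, 0 and 2 raw counts in siRNA1, 14, 4 and 0 in siRNA2 and 0 in NC libraries. Its summed siRNA2 count was at least 6.18-fold higher against the floor, with an interval that began at 4.53. IFNL3, another of that type, had 4, 3 and 4 in siRNA2 libraries and 0 in all others. Against the floor it was 3.78-fold higher, with an interval that began at 2.59. IFNA1 ran the other way, at 22, 5 and 4 in siRNA1, 0, 0 and 1 in siRNA2 and 33, 27 and 29 in NC libraries. It fell with siRNA2 (edgeR adjusted p = 0.00252) and not with siRNA1 (edgeR adjusted p = 0.261). It passed the filter on low counts only through its NC libraries, where it was highest, so the call is tied to the filter. IFNL1 and IFNL3 did not pass the filter and carry no test. The alpha genes are near copies of each other, so their counts are uncertain. IFNE, an interferon that epithelia make constitutively, had 233, 391 and 329 normalized counts in siRNA1, 77.9, 56.8 and 83.5 in siRNA2 and 247, 354 and 295 in NC libraries. Its log2 fold change was -2.03 ± 0.24 with siRNA2 (edgeR adjusted p = 3.61e-05) and 0.09 with siRNA1 (edgeR adjusted p = 0.853). Of the 14 interferon genes in the table these 2, IFNA1 and IFNE, passed the filter on low counts.

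Other interferon-induced genes near silence showed counts in siRNA2 libraries too, though not in each of them. CXCL10, a chemokine, had 0, 4 and 0 raw counts in siRNA1 and 19, 0 and 8 in siRNA2, GBP1, a guanylate-binding protein, had 0 in siRNA1 and 18, 0 and 14 in siRNA2, and GBP4 had 0 in siRNA1 and 17, 7 and 0 in siRNA2, all with 0 in the NC libraries. Summed over the siRNA2 libraries, these are at least 9.28-fold, 11-fold and 8.24-fold higher against the floor. The exact intervals began lower, at 7.04, 8.43 and 6.2, and cover counting error only. IFI16, a nuclear DNA sensor, had 0, 0 and 0 in siRNA1, 28, 0 and 26 in siRNA2 and 0, 0 and 7 in NC libraries. Of the 13 genes of the related lists at 0 in all NC libraries, 8 (61.5%) had more than 3 counts in siRNA2 and 4 (30.8%) in siRNA1. Among all genes of the count file, 5001 were at 0 in NC and had a count elsewhere, of which 37.2% had more than 3 counts in siRNA2 and 42.2% in siRNA1. Counts appearing from 0 were thus common among all genes, and these genes were chosen for the figure after their values were seen.

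**Figure D4:**
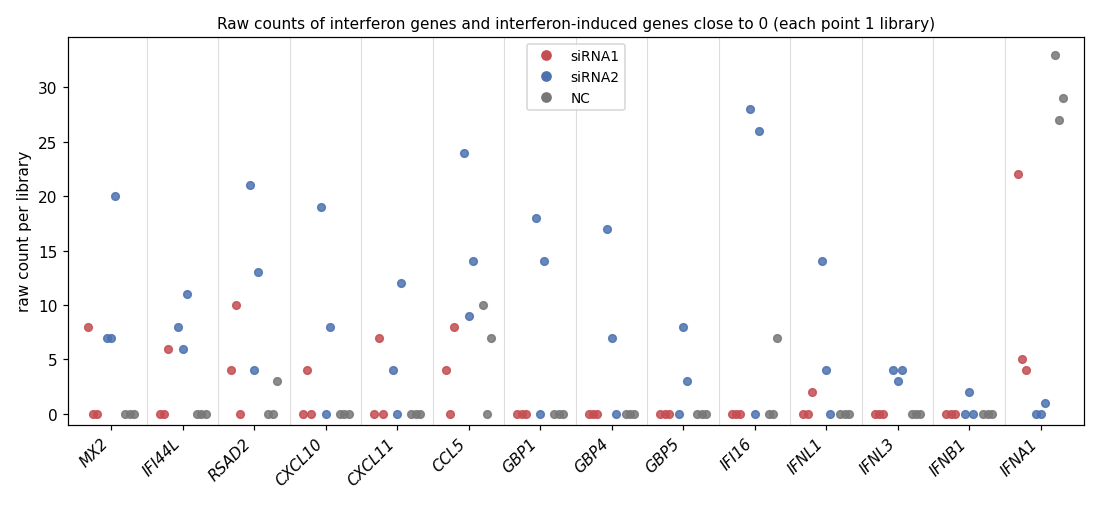
Raw counts per library (vertical axis, each point 1 library) of 14 interferon and interferon-induced genes close to 0, for siRNA1, siRNA2 and NC. The siRNA2 points reach 28 counts at IFI16 and 20 at MX2, and IFNA1 is the gene whose highest points, up to 33 counts, belong to NC.

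The pathway around the members was also examined by role. Between the sensors and the interferon genes, 19 signalling genes were tested, of which 1 was higher and 5 lower with siRNA1 (5.26% and 26.3%) and 4 were higher and 5 lower with siRNA2 (21.1% and 26.3%). Among all genes tested the shares were 10.8% higher and 10.5% lower with siRNA1 and 13.8% and 13.9% with siRNA2, and the lists of this and the next paragraphs were not tested as lists. RNF125, a ubiquitin ligase that marks RIG-I, MDA5 and MAVS for degradation, had 1518, 1505 and 1648 normalized counts in siRNA1, 3927, 4164 and 3953 in siRNA2 and 1638, 1665 and 1645 in NC libraries. It rose with siRNA2 by 1.28 ± 0.06 on the log2 scale (edgeR adjusted p = 5.84e-09). TRAF3, which links MAVS to the kinases, rose with both siRNAs (log2 0.30 and 0.42, edgeR adjusted p = 0.000165 and 6.25e-06). IRAK1, a kinase of Toll-like receptor signalling, rose with siRNA2 (log2 0.32, edgeR adjusted p = 1.02e-05). IRF2, which antagonizes IRF1, fell with both siRNAs (log2 -0.73 and -1.25, edgeR adjusted p = 0.00928 and 0.00015). IKBKE, a kinase of IRF3, and PRKRA, an activator of PKR, fell with siRNA2 (log2 -0.85 and -0.41, edgeR adjusted p = 0.000207 and 0.000194).

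Signalling from the interferon receptor held 12 tested genes, with 2 higher and 3 lower in siRNA1 (16.7% and 25%, beside 10.8% and 10.5% of all genes tested) and 2 higher and 7 lower in siRNA2 (16.7% and 58.3%, beside 13.8% and 13.9%). JAK1 and TYK2, the kinases bound to the type I receptor, fell with both siRNAs, JAK1 by log2 -0.32 and -0.63 (edgeR adjusted p = 3.76e-05 and 7.25e-08) and TYK2 by log2 -0.39 and -0.24 (edgeR adjusted p = 2.85e-05 and 0.001). IL10RB, a chain of the type III interferon receptor, also fell with both siRNAs (log2 -0.35 and -0.61), and its partner IFNLR1 fell with siRNA2 (log2 -0.26, edgeR adjusted p = 0.0427). The phosphatase gene PTPN6 fell with siRNA2 (log2 -0.42), and STAT3 rose with both siRNAs (log2 0.24 and 0.26, edgeR adjusted p = 0.00672 and 0.00304).

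Among 45 other interferon-stimulated genes, 37 were tested, at a median log2 fold change of -0.15 with siRNA1 and -0.34 with siRNA2. In siRNA1 3 were higher and 6 lower (8.11% and 16.2%), near the 10.8% and 10.5% of all genes tested. In siRNA2 5 were higher (13.5%), near the 13.8% of all genes, and 16 lower (43.2%), beside 13.9%. PARP12, another ADP-ribosyltransferase, had 1313, 1482 and 1659.5 normalized counts in siRNA1, 900.1, 941 and 898 in siRNA2 and 2018, 2073 and 2013 in NC libraries. The 3 groups did not overlap (log2 -0.45 and -1.16, edgeR adjusted p = 0.00173 and 5.49e-07). TRIM14, an adaptor of MAVS signalling, fell with siRNA2 (log2 -0.96, edgeR adjusted p = 2.27e-07) and DDX60L, a helicase, fell with both (log2 -0.48 and -0.32). ZNFX1, a helicase that binds MAVS, rose with siRNA2 (log2 0.50, edgeR adjusted p = 9.31e-06). NMI rose with siRNA1 (log2 0.47) and fell with siRNA2 (log2 -0.71), whereas HELZ2 fell with siRNA1 (log2 -0.15) and rose with siRNA2 (log2 0.29), all at an edgeR adjusted p of at most 0.0356.

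Of 8 readouts of the integrated stress response, which PKR and other kinases trigger, 6 were higher with siRNA1 (75%) and 5 with siRNA2 (62.5%), beside 10.8% and 13.8% of all genes tested, and the others did not pass. The list as a whole was not tested. ATF3 had 2006, 2116 and 1844 normalized counts in siRNA1, 1319, 1272 and 1336 in siRNA2 and 1007, 1083 and 1195 in NC libraries (log2 0.86 and 0.26, edgeR adjusted p = 9.59e-06 and 0.0342). PPP1R15A, the phosphatase subunit that reverses the response, rose by log2 0.28 and 0.59 (edgeR adjusted p = 0.00577 and 1.29e-05), and SESN2, TRIB3 and ATF4 rose with both siRNAs as well. The RNA level of EIF2AK2, given above, does not measure the activity of PKR, and which kinase was active was not tested. Of 8 tested NF-kB targets, 2 were higher and 1 lower in siRNA1 (25% and 12.5%), beside 10.8% and 10.5% of all genes tested. In siRNA2 1 was higher and 2 lower (12.5% and 25%), beside 13.8% and 13.9% of all genes tested. BIRC3, an inhibitor of apoptosis, had 767, 844 and 795 in siRNA1, 2129.6, 2357 and 2355 in siRNA2 and 969, 1119.8 and 1030 in NC libraries. Its log2 fold change was -0.37 with siRNA1 and 1.13 with siRNA2 (edgeR adjusted p = 0.00553 and 4.32e-07). The 2 that fell with siRNA2 were NFKBIA and TNFAIP3 (log2 -0.32 and -0.55, edgeR adjusted p = 0.0144 and 0.0152). ICAM1 and CXCL8 rose with siRNA1 (log2 0.82 and 1.11, edgeR adjusted p = 0.00337 and 0.00891).

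Compared with each other, the 2 siRNAs differed in 20 of the 49 tested members (40.8%), beside 29.4% of all genes tested, so such differences were common among all genes. LINC00857 itself did not differ between them by the edgeR test (log2 0.08 ± 0.17, adjusted p = 0.783). In siRNA1 against siRNA2, 13 of 49 members (26.5%) were higher and 7 (14.3%) lower, beside 15.1% and 14.3% of all genes tested, at a median of -0.01 beside 0.01. Among genes with a mean of at least 50 normalized counts the members gave 31.7% higher and 14.6% lower, beside 20.1% and 19.5%. DTX3L was higher in siRNA1 than in siRNA2 by log2 0.94 ± 0.09. IFITM1 was higher by 0.80 ± 0.17, IFITM2 by 0.78 ± 0.07 and IFITM3 by 0.63 ± 0.04. IFIH1 was higher by 0.59 ± 0.14, STING1 by 0.55 ± 0.09, PARP9 by 0.47 ± 0.08, OAS3 by 0.46 ± 0.07 and EIF2AK2 by 0.45 ± 0.04. The edgeR adjusted p of these 9 members lay between 7.49e-08 and 0.00603. STAT2, PARP14 and ADAR were higher by less (log2 0.32, 0.33 and 0.14). IFIT2 was lower in siRNA1 than in siRNA2 by the widest margin of any member with a mean of at least 50 normalized counts, with a log2 difference of -1.73 ± 0.18 (edgeR adjusted p = 9.30e-06). ISG20, IFIT1, IFNAR1, DDX58 and SP100 were lower too, with log2 differences of -0.95, -0.75, -0.54, -0.48 and -0.42. The remaining calls rest on low counts. MX1 was lower in siRNA1, with a log2 difference of -2.30 ± 0.77 (edgeR adjusted p = 0.0389), and IFI27 was higher, with 1.24 ± 0.38 (edgeR adjusted p = 0.0239). The MX1 call was lost without siRNA1 replicate 1 or any siRNA2 library (adjusted p between 0.0580 and 0.112), without the filter (adjusted p = 0.103) and in the fit of these groups alone (adjusted p = 0.0556). The IFI27 call was lost without siRNA1 replicate 1 or 3 or siRNA2 replicate 2 or 3 (adjusted p between 0.0561 and 0.0938) and without the filter (adjusted p = 0.0621).

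The members that did not differ by the edgeR test included ZC3HAV1, TRIM25 and MAVS, with log2 differences between siRNA1 and siRNA2 of 0.03 ± 0.04, 0.03 ± 0.03 and -0.01 ± 0.03. For ISG15 the difference was -0.31 ± 0.12 (edgeR adjusted p = 0.0635), and it passed without siRNA1 replicate 1 (-0.47, adjusted p = 0.00177), without siRNA2 replicate 2 (-0.39, adjusted p = 0.0424), with the replicate number as a block (-0.32, adjusted p = 0.0171), in DESeq2 (adjusted p = 0.0227) and in limma-voom (adjusted p = 0.0416). TRIM21, with -0.29 (edgeR adjusted p = 0.0523), passed without NC replicate 2 (adjusted p = 0.0493), in DESeq2 (adjusted p = 0.0419), in limma-voom (adjusted p = 0.0483) and with the stricter filter (adjusted p = 0.0442). The IFNGR2 difference of -0.16 passed in 3 of the fits that left out 1 library, in DESeq2, with median-of-ratios scaling and with the stricter filter (adjusted p between 0.0339 and 0.0485). IFNGR1 passed in DESeq2, with the block and without siRNA1 replicate 3 (adjusted p between 0.0220 and 0.0479). USP18 passed in DESeq2 and with the block (adjusted p = 0.0436 and 0.0430), TRIM22 without siRNA2 replicate 1 (1.40, adjusted p = 0.0353) and IFIT5 without siRNA2 replicate 3 (0.25, adjusted p = 0.0267). OAS1, with -1.31 (edgeR adjusted p = 0.13), passed without NC replicate 3 (adjusted p = 0.0498). At an unadjusted p under 0.05, 27 members (55.1%) differed between the siRNAs, beside 37.9% of all genes tested. Groups of 3 libraries did not overlap for 16 members that were higher and 12 that were lower in siRNA1, which is 28 of 49 beside 41.8% of all genes tested.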

How the data were processed

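Total RNA of HCT116 cells was sequenced in 9 libraries, 3 each for siRNA1, siRNA2 and NC, with groups as the labels give them. The deposited table holds raw counts, as whole numbers without normalization, of 35817 Ensembl genes, and all 9 columns were used. The submitters' processing notes name the build hg19. The aligner, the counting program, its annotation and the use of strand are not given in any source used here, so overlapping and antisense genes cannot be separated.

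Genes were filtered with filterByExpr (minimum count 10, minimum total count 15), which kept 21130, scaled with TMM and tested in edgeR 4.0.16 (R 4.3.3) by its quasi-likelihood F test in 1 model with 3 groups and 6 residual degrees of freedom. P-values were Benjamini-Hochberg adjusted over all genes tested, with a threshold of 0.05. For low counts, ratios of summed counts were given with exact 95% intervals, and folds against a group at 0 used a floor of 3 counts over the group. The intervals cover counting error only. Levels per length used exon lengths of GENCODE v29 on GRCh38, joined by Ensembl ID (34766 of 35817 found), and promoter sequences came from RefSeq on GRCh38.p14. No coordinate was moved between builds.

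The members and the gene lists were chosen with earlier results of these data known. Members were named if they passed in any comparison, with values per library for the 16 with the smallest adjusted p, and the classical interferon-stimulated genes and the double-stranded RNA sensors were named whatever their result. From each other list at most 6 genes that passed were named. Genes near 0 outside these rules were chosen after their values were seen. Markers of epithelial, leukocyte, plasmacytoid dendritic, fibroblast and endothelial cells were summed per library. The plasmacytoid dendritic markers summed to 6 to 11, 14 to 30 and 5 to 17 counts and the endothelial markers to 49 to 82, 28 to 61 and 54 to 97 in siRNA1, siRNA2 and NC libraries.

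Alternatives were DESeq2 1.42.0, limma-voom (limma 3.58.1), median-of-ratios and upper quartile scaling, no filter and a stricter filter, fits of the 2 groups compared, the replicate number as a block, and leaving out each library. Deviations of libraries with the same replicate number correlated between -0.0911 and 0.0628, so the numbers were not treated as pairs. Replicates of a group differed beyond sampling noise, with a chi-square per gene of 10.2 to 18.9, so none was counted as a duplicate. On data simulated for siRNA2 against NC (20333 genes), the test recovered 50.7%, 80.6% and 97.0% of genes changed by 0.5, 1 and 2 log2 units, with 8 false calls among 20133 unchanged genes. Changes were planted in 67, 67 and 66 genes of these sizes, all with a mean raw count of at least 50. The spread was the one edgeR had fitted to these data. The rates therefore do not cover genes with fewer counts, and they do not check that model. Far more genes, 5853, were called for siRNA2 against NC in the data. The adjusted cut-off was thus not the same there, and the rates may not carry over. Of the genes planted at 0.5 log2 units, 2 were fitted with the wrong sign.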

Additional observations from a re-analysis of the deposited data

Results flagged for a closer look

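For 3 members the edgeR test called opposite changes against NC with the siRNAs, and the difference between the siRNAs passed the test itself. IFITM2, a membrane protein that restricts viral entry, was higher in siRNA1 than in siRNA2 by 0.78 on the log2 scale (edgeR adjusted p = 2.36e-06), and its paralog IFITM3 by 0.63 (edgeR adjusted p = 7.49e-08). IFNAR1, a chain of the type I interferon receptor, was lower in siRNA1 than in siRNA2, with a log2 difference of -0.54 (edgeR adjusted p = 1.74e-06). In each of the 3 genes all 3 libraries of siRNA1 lay on one side of NC and all 3 of siRNA2 on the other. PARP9 showed the same split of libraries and a direct difference of 0.47 (edgeR adjusted p = 0.000739), but its siRNA1 value against NC did not pass (edgeR adjusted p = 0.0687). The siRNA1 value of IFITM2 and the siRNA2 value of IFNAR1 against NC lost their calls when certain single libraries were left out, whereas the direct differences of the 3 genes passed under every alternative.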

How the results depend on the processing

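No called member changed sign under any alternative run. Every alternative kept 5 of 14 calls with siRNA1, 14 of 19 with siRNA2 and 18 of 20 between the siRNAs. With single libraries left out, the members called ranged from 2 to 3 higher and 7 to 14 lower for siRNA1 against NC, from 2 to 4 higher and 12 to 17 lower for siRNA2 against NC, and from 12 to 14 higher and 6 to 8 lower for siRNA1 against siRNA2. The lowest siRNA1 count, 7 lower against 11 with all libraries, came without NC replicate 1 and without siRNA1 replicate 3. The median log2 fold change of the members then ranged from -0.17 to -0.14 for siRNA1, from -0.17 to -0.10 for siRNA2 and from -0.0168 to 0.0266 between the siRNAs. DESeq2 called 11 members lower in siRNA1 than in siRNA2, against 7 in edgeR. Upper quartile scaling put the siRNA1 median at -0.12, and a fit of siRNA2 and NC alone put the siRNA2 median at -0.16. The median between the siRNAs was -0.0260 without the filter, 0.0297 with a stricter filter and 0.0268 in a fit of those groups alone, so that its sign depends on the setting. The cause of these shifts was not tested.

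With the replicate number as a block, 4481 genes passed for siRNA1 against NC, 5800 for siRNA2 against NC and 6229 between the siRNAs, beside 4491, 5853 and 6216 without it, and of the calls of the 49 tested members it added IFNGR1 for siRNA1 against NC (adjusted p = 0.0445) and ISG15, IFNGR1 and USP18 between the siRNAs (adjusted p = 0.0171, 0.0220 and 0.0430) and removed none. The same numbers did not deviate together, so this block describes no pairing in the design. Counts under about 10 per library, as for MX2, IFI44L, RSAD2 and the interferon genes, limit what can be said of the most inducible genes.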

Other observations

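The type III interferon genes and several chemokine and guanylate-binding protein genes had counts in siRNA2 libraries and few elsewhere, but not in the same libraries. GBP5 had 0, 8 and 3 raw counts in the siRNA2 libraries and 0 in the siRNA1 and NC libraries. CCL5, a chemokine, summed to 12 counts in siRNA1, 47 in siRNA2 and 17 in NC libraries, a ratio of siRNA2 to NC of 2.85 (95% interval 1.61 to 5.29, counting error only). TNF ran the other way, with 13 counts in siRNA1, 0 in siRNA2 and 15 in NC libraries. These genes were chosen after their values were seen, and they carry no test.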
